A study of Homo sapiens with 34 samples.

Results

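The genes described here were the alpha-like globins HBZ, HBM, HBA1, HBA2 and HBQ1 together with AHSP, which were taken by name from the gene expression table, 6 of its 20255 genes. They were followed in cells of H1, a human embryonic stem cell line, during haematopoietic differentiation without added haematopoietic cytokines. RNA sequencing covered 34 samples of 12 populations. One undifferentiated sample had received no treatment. The treatment is labelled BMP4 and hVEGF for embryoid bodies at day 0 and hVEGF for all later cells, which had been through the BMP4 and VEGF step at the start of attachment. Unsorted cells were collected on days 2 and 4. Sorted CD43+ and CD43- cells were collected on days 6, 9 and 12, and on day 16 the sort also used CD45, which gave CD43+/CD45+ and CD43-CD45- cells. The replicated populations had 3 samples each. All samples came from 1 cell line. CD43 is the product of SPN, a sialoglycoprotein of blood cells, and CD45 that of PTPRC, a phosphatase of leukocytes.

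Haemoglobin is made of a pair of alpha-like and a pair of beta-like chains, each holding haem. The alpha-like genes lie in one cluster on chromosome 16, with the embryonic gene first. HBZ encodes the zeta chain of the embryonic yolk sac red cells, while HBA2 and HBA1 encode the same alpha chain, which is used from the embryo onward. HBM encodes the mu chain and HBQ1 the theta chain, which are transcribed in erythroid cells but have no settled part in haemoglobin. AHSP, on the same chromosome but outside the cluster, encodes a chaperone that binds free alpha chains and holds them soluble until they meet a beta-like partner.

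In the GRCh38 coordinates of the table, HBZ was at chr16:152687-154503, HBM at chr16:153892-166768, HBA2 at chr16:172847-173710, HBA1 at chr16:176680-177522 and HBQ1 at chr16:180453-181181, all on the plus strand. AHSP was at chr16:31527864-31528803 on the same strand. The table's HBM interval began inside HBZ. In GENCODE v29, the first exon of the transcript HBM-202 was the second exon of HBZ, chr16:153892-154096, base for base. Of the 656 windows of 100 bases in the HBZ transcript, 16.2% also occurred in HBM-202, but none of them occurred in HBM-201, whose first exon lies at chr16:165978-166089. Another transcript, HBM-203, began with an exon of the pseudogene HBZP1, chr16:164482-164686, which differed from the second exon of HBZ at 0 of 205 bases. HBA1 and HBA2 were identical over all 429 coding bases, and 79.7% of the 100-base windows of the HBA1 transcript occurred in HBA2. Reads from the shared stretches can be divided between these genes only by estimation, and whether the counting used strand is not stated.

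**Figure D1:**
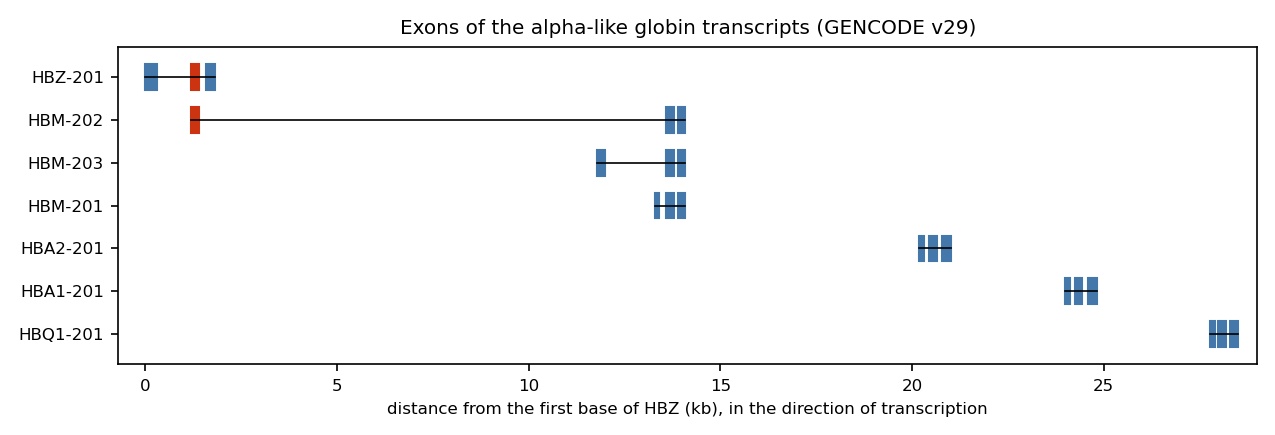
Exons of the alpha-like globin transcripts against the distance from the first base of HBZ in kilobases; boxes are exons, thin lines introns. The red boxes mark the exon that HBZ-201 and HBM-202 have in common, and AHSP lies outside the region drawn.

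The second exon, which encodes most of the haem pocket, is shown to make the relation of the chains visible. It had 205 bases in all 5 globins. Capitals mark the bases that differ from HBA1, read 5′ to 3′ on the plus strand of GRCh38. The HBA2 exon, chr16:173125-173329, had 0 differences from HBA1 and is not repeated. The HBA1 exon lies at chr16:176929-177133, that of HBQ1 at chr16:180666-180870, that of HBZ at chr16:153892-154096 and that of HBM at chr16:166268-166472.
HBA1: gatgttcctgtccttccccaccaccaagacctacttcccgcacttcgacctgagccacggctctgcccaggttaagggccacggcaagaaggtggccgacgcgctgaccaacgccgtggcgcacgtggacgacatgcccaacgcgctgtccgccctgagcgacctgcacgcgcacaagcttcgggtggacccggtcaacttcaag
HBQ1: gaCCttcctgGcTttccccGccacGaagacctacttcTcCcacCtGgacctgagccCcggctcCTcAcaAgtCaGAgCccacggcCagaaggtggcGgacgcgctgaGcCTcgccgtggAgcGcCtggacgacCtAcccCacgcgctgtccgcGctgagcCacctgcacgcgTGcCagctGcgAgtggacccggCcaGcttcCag
HBZ: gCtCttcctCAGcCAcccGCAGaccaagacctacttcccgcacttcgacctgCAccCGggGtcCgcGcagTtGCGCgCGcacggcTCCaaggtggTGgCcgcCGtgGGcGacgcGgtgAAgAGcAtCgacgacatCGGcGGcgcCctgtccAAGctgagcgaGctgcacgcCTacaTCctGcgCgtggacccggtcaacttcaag
HBM: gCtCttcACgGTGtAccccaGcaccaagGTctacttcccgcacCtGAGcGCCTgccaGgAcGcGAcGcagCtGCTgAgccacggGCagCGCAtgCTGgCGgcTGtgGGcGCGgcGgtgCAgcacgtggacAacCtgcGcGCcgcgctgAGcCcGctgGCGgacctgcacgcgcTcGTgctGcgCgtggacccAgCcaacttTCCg
HBQ1 differed at 40 bases, HBZ at 59 and HBM at 73. Over the whole coding sequence, HBQ1 was 73.5% identical to HBA1, HBZ 69.6% and HBM 63.3%. Of all pairs of the 8 transcripts that belong to different genes of the 6, HBA1 with HBA2 and HBZ with the alternative HBM transcripts had windows of 50 or 100 bases in common, and no other pair did.

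Of the 6 genes, the RefSeq promoter table (GRCh38.p14) held HBM alone. Its 250 bases before the start, chr16:165728-165977 on the plus strand, are those of HBM-201. They are printed because they lie between the exon common to HBZ and HBM-202 and the HBM exons, with capitals for 3 motifs that were searched.
HBM promoter: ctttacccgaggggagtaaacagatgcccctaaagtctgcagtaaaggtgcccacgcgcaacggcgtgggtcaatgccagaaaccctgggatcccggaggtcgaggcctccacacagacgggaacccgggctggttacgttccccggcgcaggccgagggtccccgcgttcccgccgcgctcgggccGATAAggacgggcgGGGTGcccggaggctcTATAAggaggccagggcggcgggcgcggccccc
GATAA, the core of GATA factor sites, stood 63 to 59 bases before the start and occurred in 20.4% of the 35116 promoters of the table. CACCC, the core of KLF1 sites, stood on the minus strand 49 to 45 bases before the start (54.7% of promoters), and TATAA 33 to 29 bases before it (18.9%). CCAAT was not found in this window and occurred in 32.0% of promoters. All were searched on both strands, and they do not overlap.

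Values are tag counts that the authors normalized for GC content within and between samples, deposited as whole numbers. Each of the 34 samples held the same set of values in another order, with a sum of 17856940, a median of 197, 1292 genes at 0 and a maximum of 90700, held by 10 genes. A value therefore tells the place of a gene among the normalized values of its sample, depth is unknown, and large changes at the top are compressed. The normalization for GC content can give genes of unlike GC content the same value. This place therefore need not be the rank by abundance in the sample. Values of different genes are not per length and are compared here only as changes. Fold changes are on the log2(value + 1) scale from limma, with their standard error (SE) for 3 samples a group. Genes were called at an adjusted p below 0.05 and a fold above 4. The variance of a gene was estimated over all 33 replicated samples. An SE or interval therefore also holds the spread within populations that were not in the comparison. The sum of SPN and PTPRC ranged from 19 to 606 in CD43- samples and from 5979 to 18206 in CD43+ samples. CD43- cells carried the mesenchymal list (10 genes, summed 206457 to 328020) and the endothelial list (9 genes, 30960 to 107773). Day 6 CD43+ cells also held both, at 60916 to 157088 and 31073 to 40646. Later CD43+ cells had lower sums, from 4407 to 46258 and from 5103 to 12773. In these bulk samples, fewer erythroid cells and less RNA per cell cannot be told apart. Statements that groups did or did not overlap describe the samples, since the share of all genes without overlap was not counted.

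**Figure D2:**
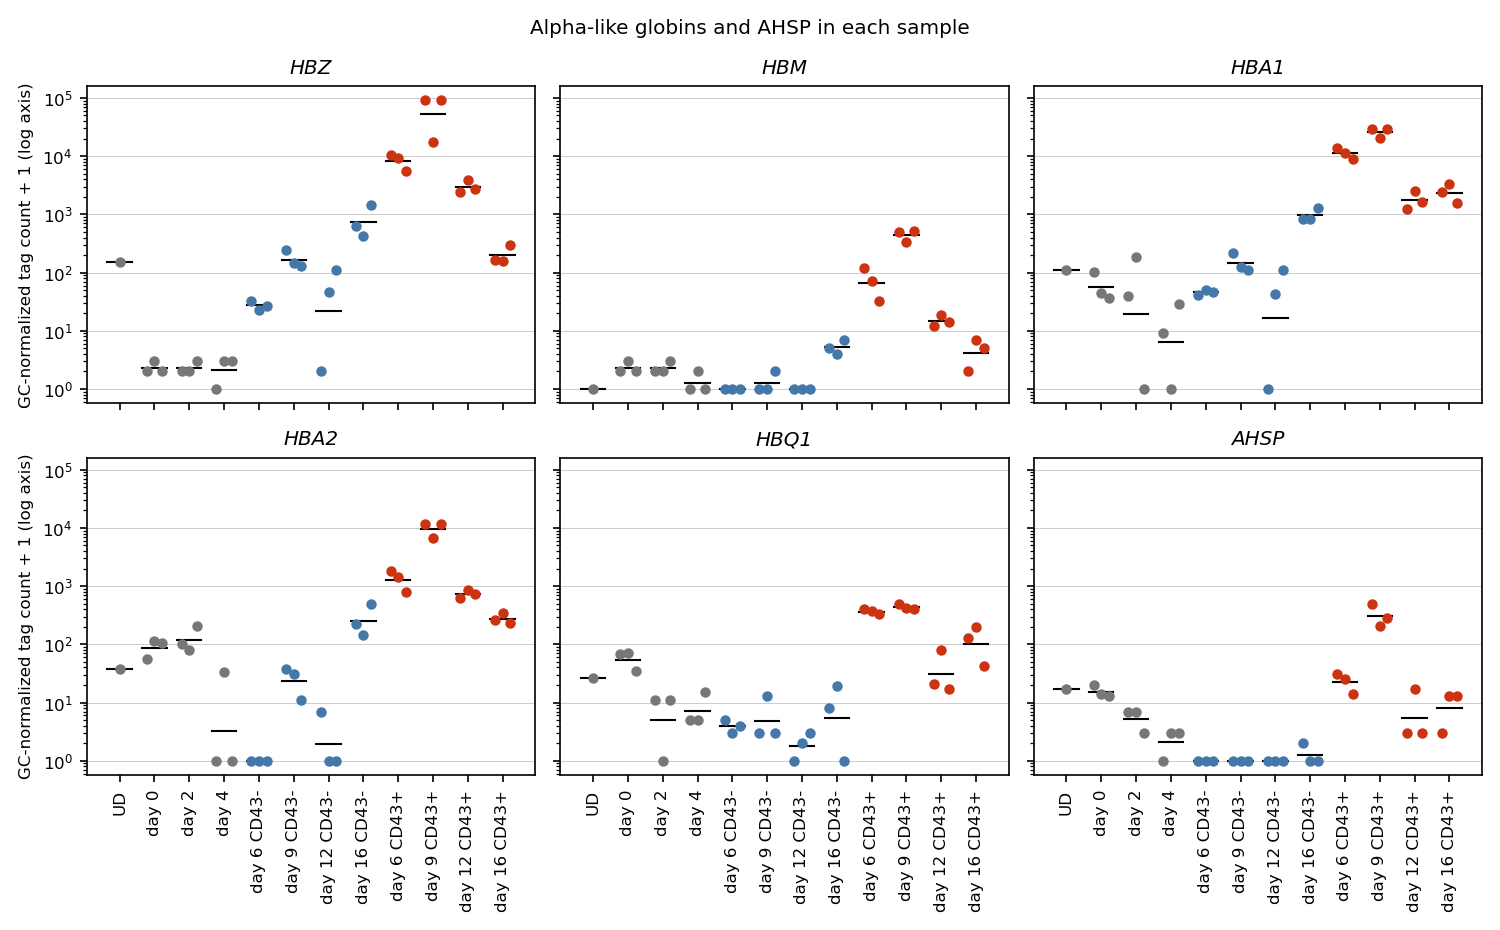
GC-normalized tag count plus 1 on a log axis for each gene in each sample; grey points are unsorted, blue CD43- and red CD43+ samples, and black bars are the means of log2 values. All 6 genes were highest in day 9 CD43+ cells. HBZ, HBA1 and HBA2 rose from day 12 to day 16 in CD43- cells, where HBM reached only 3 to 6.

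Before sorting, the genes were low and did not move together. HBZ, the embryonic chain, was between 0 and 2 in all 9 unsorted samples of days 0, 2 and 4, against 150 in the only undifferentiated sample. HBM was between 0 and 2 in the same 9 samples. In 7 of them HBM and HBZ had the same value. At so low a level a value separates few genes, and these groups overlap. HBQ1 fell from 66, 69 and 34 on day 0 to 10, 0 and 10 on day 2 (log2 fold change -3.47, limma adjusted p = 0.00307). It was the 1 gene of the 6 called lower in that step, against 3.48% of all genes tested. HBA2 fell from 100, 78 and 207 on day 2 to 0, 32 and 0 on day 4 (-5.21, adjusted p = 2.21e-05), and was likewise the 1 gene called lower, against 4.53% of all genes. HBA1 ranged from 0 to 186 on day 2, which took in its ranges on day 0 (36 to 102) and day 4 (0 to 28). Those of days 0 and 4 did not overlap. AHSP was at 12 to 19 on day 0 and at 0 to 2 on day 4.

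All 6 genes rose in the first CD43+ cells. HBZ was at 10426, 9485 and 5476 in day 6 CD43+ cells and at 32, 22 and 26 in day 6 CD43- cells. HBA1 was at 13998, 11498 and 8964 in CD43+ and at 40, 50 and 46 in CD43- cells. Neither pair of groups overlapped, and the difference was 8.22 (SE 0.85, adjusted p = 9.23e-09) for HBZ and 7.94 (SE 1.34, adjusted p = 1.93e-05) for HBA1. HBA2 was at 1814, 1420 and 794 in CD43+ cells and listed at 0 in all 3 CD43- samples. HBM was at 121, 70 and 32, and AHSP at 30, 24 and 13, both again listed at 0 in all 3 CD43- samples, so that no fold is given for these 3 genes (adjusted p = 2.07e-10, 3.31e-11 and 6.88e-07). HBQ1, the theta chain, was at 398, 366 and 332 against 4, 2 and 3 (6.54, SE 0.89, adjusted p = 9.05e-07). In all, 6 of 6 were called higher in CD43+ cells, against 4.68% of all genes tested in that direction. With a pseudocount of 10 in place of 1, AHSP was not called in this comparison, nor for day 6 CD43+ cells against day 4. The median log2 fold change was 7.24 over the 6 genes, with the 3 genes listed at 0 at their fitted values, which depend on the pseudocount, and 0.14 over all genes.

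Against day 4, the 6 genes were also called higher in day 6 CD43+ cells (6.80% of all genes), from 3.41 (SE 0.60) for AHSP to 11.94 (SE 0.85) for HBZ. In CD43- cells of day 6, HBZ rose from day 4 by 3.72 (SE 0.85, adjusted p = 0.00083), and it was the 1 gene of the 6 called higher (4.94% of all genes). Replicate 3 of the day 6 CD43+ cells had the lowest value of the 3 for each of the 6 genes.

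**Figure D3:**
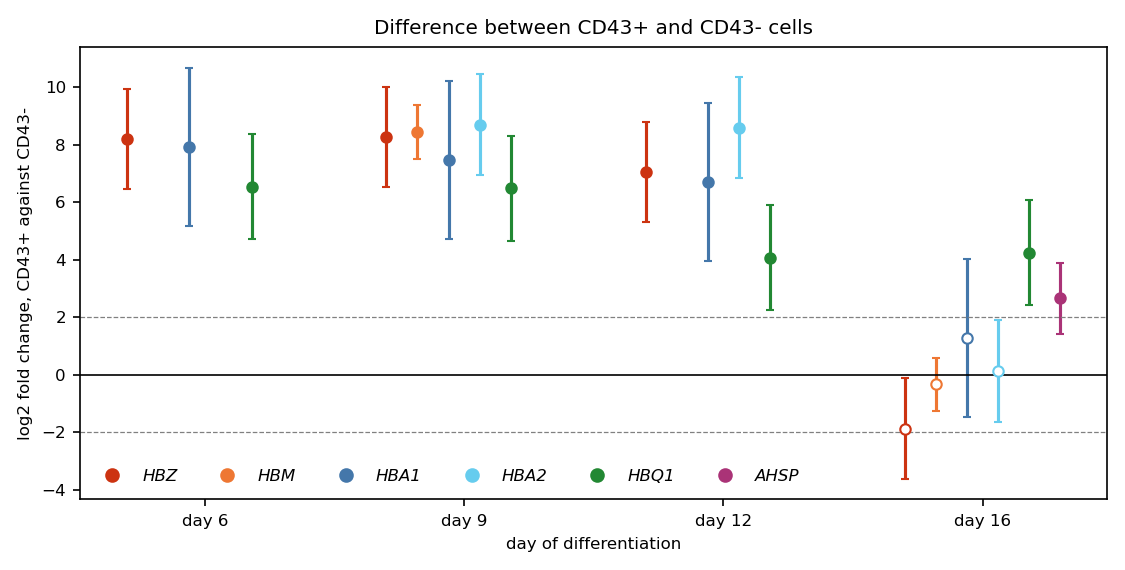
Log2 fold change of CD43+ against CD43- cells by day, with 95% confidence intervals; filled points were called, open points were not, and dashed lines mark a 4-fold change. HBM, HBA2 and AHSP on day 6, AHSP on day 9, and HBM and AHSP on day 12 are left out because the CD43- samples were listed at 0. On day 16 the interval of HBZ lay below 0 and those of HBQ1 and AHSP above 0.

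On day 9 the CD43+ cells held the highest values of all 6 genes over the 12 populations, and for each the range did not overlap the next population in that order. HBZ was at 90700, 17338 and 90700, in replicates 1 and 3 at the highest value that the table holds. HBA1 was at 29000, 20394 and 29000, and HBA2 at 11498, 6812 and 11498. Replicate 2 was the lowest for both alpha genes, for HBZ, for HBM (499, 330 and 523) and for AHSP (486, 204 and 281). Among the erythroid genes, SLC4A1, the band 3 anion exchanger, was lowest in that replicate as well (8272, 1686 and 8797). HBQ1 was at 490, 426 and 402.

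Between days 6 and 9 in CD43+ cells, HBZ (2.68, SE 0.85, adjusted p = 0.017), HBM (2.75, SE 0.45, adjusted p = 3.35e-05), HBA2 (2.93, SE 0.86, adjusted p = 0.0102) and AHSP (3.78, SE 0.60, adjusted p = 1.93e-05) were called higher, 4 of 6 against 3.56% of all genes. The step of HBA1 was 1.19 with a 95% interval from -1.56 to 3.94, and that of HBQ1 was 0.26 with an interval from -1.57 to 2.10. The HBA1 interval rests on the variance over all populations. Its log2 SD was 0.32 in day 6 and 0.29 in day 9 CD43+ cells, but 3.87 in day 2 cells. The HBZ call was lost without day 6 replicate 3, day 9 replicate 1 or day 9 replicate 3 (2.28 to 2.39), and without the first of these the HBA2 call was lost as well (2.59). Of the beta-like globins, 1 of 5 was called higher in this step. Between the sorted populations of day 9, 6 of 6 were called higher in CD43+ cells (8.65% of all genes), from 6.49 (SE 0.89) for HBQ1 to 8.70 (SE 0.86) for HBA2. AHSP was listed at 0 in the 3 CD43- samples, where HBZ was at 244, 144 and 131 and HBA1 at 217, 124 and 112. HBA2, listed at 0 in the day 6 CD43- samples, had 36, 30 and 10 there (adjusted p = 0.00122), the 1 gene of the 6 called higher in CD43- cells in this step (1.1% of all genes). The HBA2 call was lost with a pseudocount of 10 (adjusted p = 0.0187, less than 4-fold) and in a limma fit of those populations alone with the replicate block (adjusted p = 0.17).

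By day 12 all 6 genes had fallen in CD43+ cells. HBZ was at 2378, 3854 and 2770 (-4.15, SE 0.85, adjusted p = 0.000165), HBA1 at 1260, 2549 and 1651 (-3.89, SE 1.34, adjusted p = 0.0156) and HBA2 at 636, 872 and 724 (-3.71, SE 0.86, adjusted p = 0.00063). HBM fell to 11, 18 and 13 (-4.91, SE 0.45, adjusted p = 1.1e-09) and HBQ1 to 20, 80 and 16 (-3.84, SE 0.89, adjusted p = 0.000662). AHSP had the steepest fall of the 6 in these values, to 2, 16 and 2 (-5.83, SE 0.60, adjusted p = 6.78e-09). No group overlapped its day 9 group. The share of all genes called lower in this step was 6.54%, and the median over the 6 was -4.02 against -0.15 over all genes.

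Replicate 2 of the day 12 CD43+ cells had the highest value of the 3 for each of the 6 genes, and also for GATA1, an erythroid and megakaryocytic transcription factor (321, 1012 and 782). The fall took in all 5 beta-like globins, 11 of 18 genes of the erythroid membrane and late erythroid list and 3 of 11 haem biosynthesis genes. ALAS2, the first enzyme of haem synthesis in erythroid cells, fell by 5.53 (adjusted p = 9.77e-10). Of the regulators of the alpha cluster and AHSP, KLF1 (-3.61) and GATA1 (-2.54) were called lower, 2 of 11. In the same step 7 of 8 neutrophil and 8 of 8 macrophage markers were called higher. The share of all genes called higher in this step was not counted. The neutrophil sum, between 24834 and 32345 on day 9, was between 281650 and 308919 on day 12. The part of these changes in cell content in the fall of the globins was not tested.

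Against CD43- cells of day 12, all 6 genes were still called higher in CD43+ cells (11.8% of all genes). HBZ was at 1, 46 and 111 in the CD43- samples and HBA1 at 0, 42 and 108, so that replicate 1 was almost without either transcript. That replicate also had the lowest neutrophil sum (122, against 927 and 8420) and macrophage sum (431, against 6107 and 7914) of the 3. HBM and AHSP were listed at 0 in all 3 CD43- samples. The AHSP call on day 12 was lost without CD43+ replicate 2 (adjusted p = 0.0179, less than 4-fold). Between days 9 and 12, HBZ (-2.93, SE 0.85, adjusted p = 0.00799) and HBA2 (-3.61, SE 0.86, adjusted p = 0.00176) were called lower in CD43- cells, 2 of 6 against 2.80% of all genes. Without CD43- replicate 1 of day 12, the HBZ value was -1.21 and was no longer called.

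On day 16 the genes parted. The sort of that day also used CD45, so in each comparison of day 16 with earlier days the day and the sort cannot be told apart. HBZ was at 163, 158 and 302 in CD43+ cells, a fall from day 12 of 3.88 (SE 0.85, adjusted p = 0.000609), and was the 1 gene of the 6 called lower (5.26% of all genes). HBA1 was at 2426, 3342 and 1560, a step of 0.42 from day 12 with a 95% interval from -2.33 to 3.17, and overlapped its day 12 values. HBA2 was at 258, 342 and 232, below each of its day 12 values, with a step of -1.43 and an interval from -3.19 to 0.33. HBM was at 1, 6 and 4, which was 1.84 lower (adjusted p = 0.00194) and less than the 4-fold limit. HBQ1 was at 126, 196 and 41 (1.73, interval from -0.10 to 3.56) and AHSP at 2, 12 and 12 (0.58, interval from -0.65 to 1.80), both overlapping day 12. Without replicate 2 of the day 12 CD43+ cells, the HBQ1 step was 2.43 and was called, and without replicate 2 of day 16 that of HBM was -2.22 and was called.

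In CD43- cells the 4 genes from HBZ to HBA1 in the cluster rose between the same days. HBZ rose from 1, 46 and 111 to 632, 416 and 1448 (5.05, SE 0.85, adjusted p = 2.7e-05). HBA1 rose to 822, 846 and 1284 (5.85, SE 1.34, adjusted p = 0.000882). HBA2 rose from 6, 0 and 0 to 224, 142 and 484 (7.03, SE 0.86, adjusted p = 2.86e-07). HBM, listed at 0 in the day 12 samples, had 4, 3 and 6 (adjusted p = 0.000128). None of these groups overlapped its day 12 group, and 4 of 6 genes were called higher against 4.46% of all genes. The HBM call was lost with a pseudocount of 10 (adjusted p = 0.0826). HBQ1 had 7, 18 and 0 (1.55, interval from -0.28 to 3.39) and AHSP 1, 0 and 0, both overlapping day 12. Without CD43- replicate 3 of day 16, HBQ1 was 2.76 higher and was called. Thus AHSP was at or next to 0 in all 12 sorted CD43- samples, also in the 3 where its client HBA1 was at 822 to 1284.

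On day 16 the CD43 difference was called for HBQ1 and AHSP of the 6 genes. HBZ was higher in each CD43- than in each CD43+ sample (-1.87, SE 0.85, interval from -3.61 to -0.13), but with an adjusted p of 0.0539 it was not called. Without CD43- replicate 2 the value was -2.27 and the gene was called. HBA1 was higher in each CD43+ sample, with a difference of 1.27 and an interval from -1.48 to 4.03. HBA2 overlapped between the populations (0.14, interval from -1.63 to 1.90), as did HBM (-0.33, interval from -1.27 to 0.60). HBQ1 (4.25, SE 0.89, adjusted p = 0.000147) and AHSP (2.66, SE 0.60, adjusted p = 0.000321) were called higher in CD43+ cells, 2 of 6 against 12.2% of all genes. All 5 beta-like globins were called higher in CD43+ cells of that day, by up to 5.31 for HBD.

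How the CD43 difference of day 16, where the sort also used CD45, departed from that of day 12 was tested in the same fit. The day and the sort cannot be told apart in this change. It was called lower for HBZ (-8.93, SE 1.20, adjusted p = 1.16e-05), HBA2 (-8.46, SE 1.21, adjusted p = 2.66e-05), HBM (-4.21, SE 0.64, adjusted p = 6.01e-05) and HBA1 (-5.43, SE 1.90, adjusted p = 0.0483), 4 of 6 against 2.17% of all genes. The HBA1 call was lost when any of 10 of the 12 samples was left out, and without CD43- replicate 1 of day 12 the value was -3.40. It was also lost with a pseudocount of 0.1, with median-of-ratios scaling (adjusted p = 0.0508), with only the populations compared (0.0858) and with either replicate block. The HBM values rest on CD43- groups listed at 0, so that their size depends on the pseudocount, and with a pseudocount of 10 the HBM change was not called (-1.33). HBQ1 and AHSP were not called. Between days 6 and 12, HBM was the 1 gene of the 6 whose CD43 difference had a called change (-2.16, SE 0.64, adjusted p = 0.00745), against 10% of all genes called lower, and this call was lost without day 6 CD43+ replicate 1 (-1.72).

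**Figure D4:**
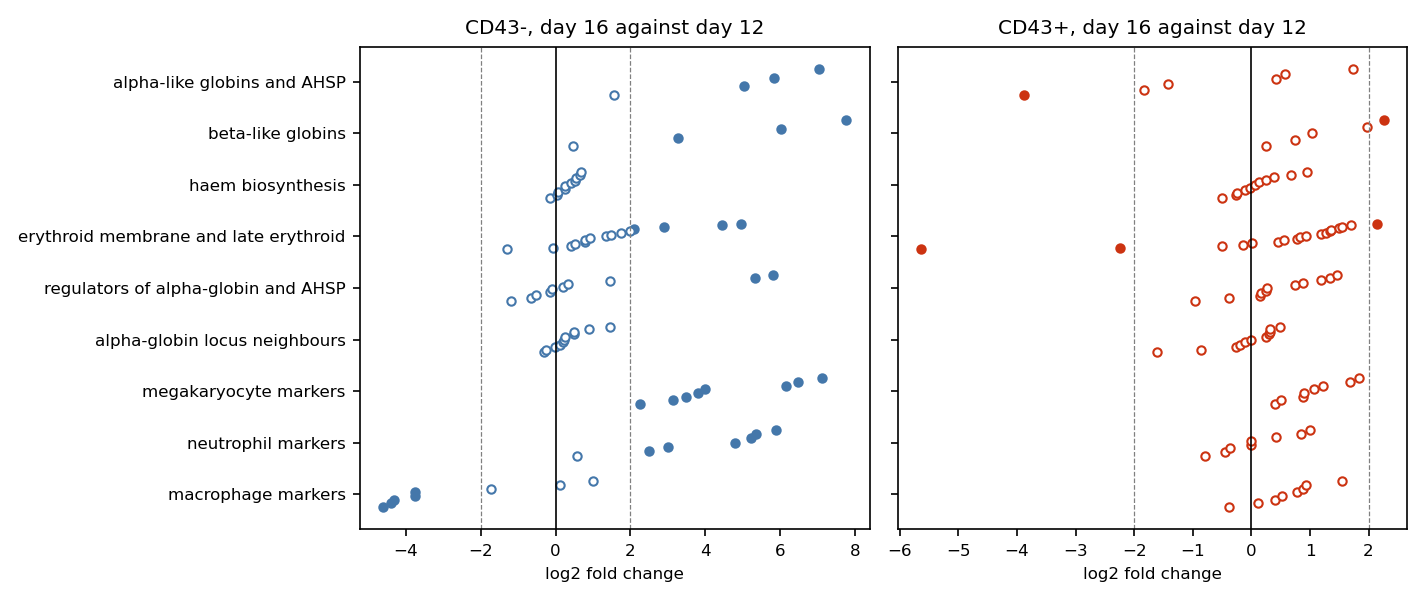
Log2 fold change from day 12 to day 16 of each gene of 9 lists, in CD43- cells (left) and CD43+ cells (right); filled points were called, and genes whose samples were all listed at 0 in a group are left out. In CD43- cells called rises occurred in the globin lists and in the erythroid, regulator, megakaryocyte and neutrophil lists, and in CD43+ cells HBZ was the called gene of the alpha-like list.

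Other genes rose with the globins in the day 16 CD43- cells. Of the beta-like globins, HBG2 (7.77, SE 0.93, adjusted p = 2.19e-07), HBE1 (6.01, SE 0.67, adjusted p = 6.53e-08) and HBD (3.27, SE 0.61, adjusted p = 0.000102) were called higher, 3 of 5. These are a fetal, an embryonic and a minor adult chain. Of 11 haem biosynthesis genes, 1 was called higher, ALAS2, which had been listed at 0 on day 12 and had 35, 49 and 75. Of 11 regulators, 3 were called higher: GATA1 (5.81, SE 0.62), NFE2 (5.33, SE 0.42) and KLF1, which had been listed at 0. Of 18 erythroid membrane and late erythroid genes, 6 were called higher, led by RHAG (4.97, SE 0.64), the Rh-associated glycoprotein, and HEMGN (4.46, SE 0.75).

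Markers of other blood cells moved in the same samples. All 8 megakaryocyte markers were called higher in CD43- cells, led by PF4 (7.11, SE 0.90) and PPBP (6.49, SE 1.08), and their sum, between 213 and 1152 on day 12, was between 4818 and 14756 on day 16, with none of the list at 0 in the group. Of 8 neutrophil markers, 6 were called higher, led by PRTN3 (5.90, SE 1.27) and ELANE (5.35, SE 0.55), and the sum on day 16 ranged from 7410 to 26846, against 247516 to 307725 in CD43+ cells. Of 8 macrophage markers, 5 were called lower, led by C1QA (-4.60, SE 0.85), where the share of all genes called lower was not counted. The megakaryocyte and neutrophil sums were highest in CD43- replicate 2 (14756 and 26846). Of the 6 genes, HBZ (416), HBA2 (142) and HBM (3) were lowest in that replicate. HBA1 (846) was between the others there, HBQ1 (18) was highest, and AHSP was at 0. SPN was at 84, 328 and 122 and PTPRC at 18, 42 and 22 in these samples, against at least 2338 and 10084 in CD43+ cells. The part of other blood cells in the globin values was not tested. The mesenchymal and endothelial lists had no gene called in this step by limma, and at an unadjusted p below 0.05 there were 3 endothelial genes higher and 2 mesenchymal genes lower.

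Within a sample, differences of log2(value + 1) between genes show which genes moved apart. HBZ minus the mean of HBA1 and HBA2 in CD43+ cells was 1.11 ± 0.11 in day 6 samples, 1.73 ± 1.01 in day 9 samples, 1.37 ± 0.03 by day 12 and -2.01 ± 0.91 at day 16 (mean ± SD, n = 3 each). In replicates 1 and 3 of day 9, HBZ was at 90700, the highest value of any gene, which limits the mean and SD of that day. The day 16 samples were -2.27, -2.75 and -0.99, all below each earlier sample. Days differed in an exact permutation test (p = 0.00773, adjusted p = 0.0129 over 10 tests). In CD43- cells the day 16 samples were 0.56, 0.26 and 0.88, above each CD43+ sample of that day, and days did not differ beyond their spread (adjusted p = 0.451). The sign of such a difference also depends on transcript length and on the normalization for GC content, and the difference is not a ratio of molecules.

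HBA2 minus HBA1, 2 transcripts of nearly equal length, was -3.15 ± 0.30 and -1.42 ± 0.14 in the CD43+ cells of days 6 and 9, and -1.24 ± 0.28 and -3.09 ± 0.30 in those of days 12 and 16, and days differed (exact permutation p = 0.00461, adjusted p = 0.0115). HBA1 was thus above HBA2 in all 12 CD43+ samples, by less on the middle days. Since the 2 coding sequences are identical, these values rest on the bases in which the transcripts differ and on how the authors' counting divided the rest. Summed into 1 feature, the pair kept every CD43 call of days 6, 9 and 12.

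HBM minus the mean of HBA1 and HBA2 in CD43+ cells went from -5.16 ± 0.03 on day 9 to -7.60 ± 0.91 on day 16 (exact permutation p = 0.00026, adjusted p = 0.0026 over the 4 days). AHSP minus the same mean was -7.42 ± 0.14, -5.70 ± 0.41, -7.73 ± 1.11 and -6.65 ± 1.28 on days 6, 9, 12 and 16, with no difference between days past the threshold (exact permutation, adjusted p = 0.144). In CD43- cells both differences varied between days (adjusted p = 0.0026 for AHSP and 0.00649 for HBM, exact permutation), where AHSP and HBM were at or next to 0 and the values mirror HBA1 and HBA2.

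Set against the beta-like side, the mean of the 5 alpha-like globins minus that of HBE1, HBG1, HBG2 and HBD in CD43+ cells was -1.26 ± 0.10 and -0.75 ± 0.35 on days 6 and 9, and -1.36 ± 0.77 and -3.36 ± 0.56 on days 12 and 16. The 3 day 16 samples were below all earlier ones, and days differed (exact permutation, adjusted p = 0.0123). HBE1 was at 90700 in every day 6 and day 9 CD43+ sample, the highest value the table holds. HBB was left out of the beta-like mean. In CD43+ cells it was at 63 to 110 on day 6 and 22 to 42 on day 9. It was at 0 to 1 on day 12 and 6 to 8 on day 16. The sign of the difference therefore depends on the genes taken into each mean. The GC content of the alpha-like genes was 58.2 to 71.9%, and that of the beta-like genes in the mean 37.9 to 45.9%. The part of the GC normalization in this difference was not tested. In CD43- cells the means ranged from -0.30 to 0.41, and days did not differ beyond their spread (exact permutation, adjusted p = 0.503).

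**Figure D5:**
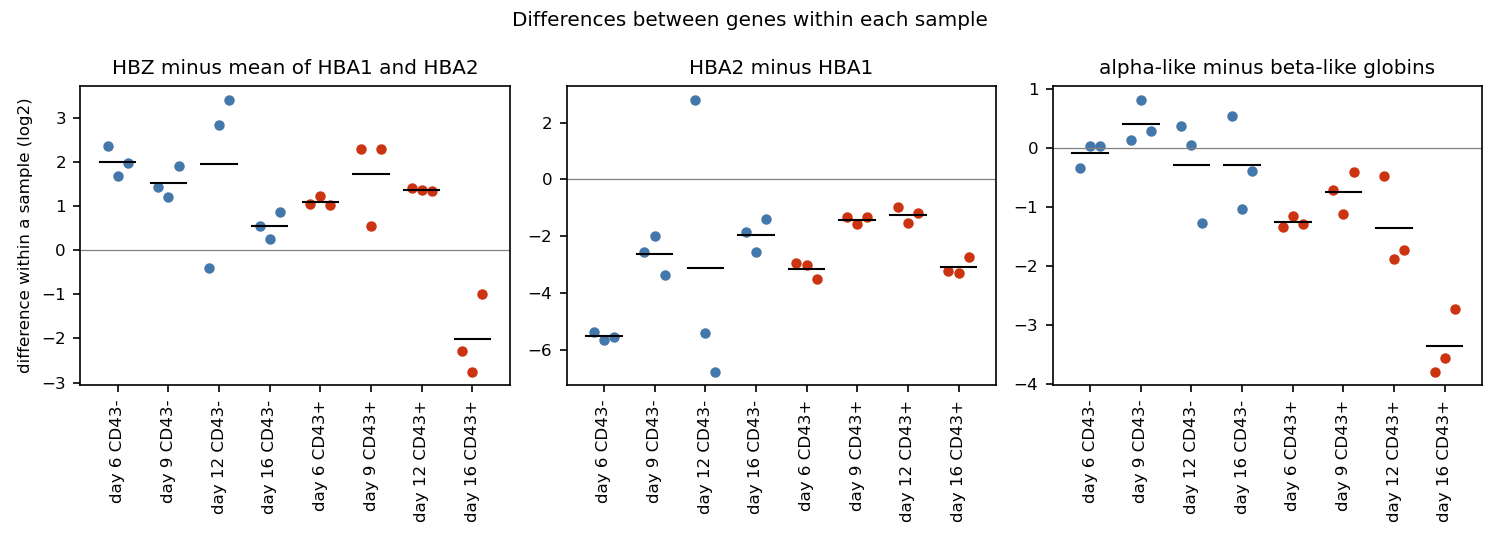
Differences of log2(value + 1) between genes within each sample of the sorted populations; blue points are CD43- and red points CD43+ samples, and black bars are means. HBZ fell below the mean of HBA1 and HBA2 in the 3 day 16 CD43+ samples. The alpha-like mean fell furthest below the beta-like mean, which leaves out HBB, in the same samples. The HBA2 minus HBA1 point above 0 is the day 12 CD43- sample in which HBA1 was listed at 0.

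Ordered over the 12 populations, HBZ ran from day 9 CD43+ (17338 to 90700) through day 6 CD43+, day 12 CD43+, day 16 CD43- (416 to 1448) and day 16 CD43+ (158 to 302) cells, each range clear of the next. Day 16 CD43+ cells overlapped day 9 CD43- cells. For HBA1, day 9 and day 6 CD43+ cells came first, and day 16 CD43+ cells overlapped day 12 CD43+ cells, which reached into the day 16 CD43- range. For HBA2, day 6 CD43+ cells overlapped day 12 CD43+ cells, and day 16 CD43- cells overlapped day 16 CD43+ cells. For HBQ1, day 9 (402 to 490) and day 6 (332 to 398) CD43+ cells stood clear of all others, and day 16 CD43+ cells overlapped day 0 embryoid bodies. For AHSP only day 9 CD43+ cells (204 to 486) stood clear, and day 6 CD43+ cells overlapped the range of the undifferentiated sample and of day 0.

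The genes next to the cluster were followed in the same comparisons. Of 11 neighbours in the table, POLR3K, SNRNP25, RHBDF1, MPG, NPRL3, LUC7L, FAM234A, RGS11, ARHGDIG, PDIA2 and AXIN1, none was called on day 6 by limma, with 5 higher and 4 lower in CD43+ cells at an unadjusted p below 0.05. NPRL3, whose introns hold the enhancers of the cluster, was 0.90 higher on day 6 (adjusted p = 2.4e-06), less than 4-fold. On day 16, RGS11 (-5.65), RHBDF1 (-3.88), PDIA2 (-3.68) and ARHGDIG (-2.63) were called lower in CD43+ cells, 4 of 11. The share of all genes called lower on that day was not counted here. Between days 9 and 12 in CD43+ cells, where the cluster fell, ARHGDIG was called higher (2.89) and none was called lower, with 7 lower and 1 higher at an unadjusted p below 0.05. Between days 12 and 16 in CD43- cells none was called by limma, with 4 higher and 1 lower at an unadjusted p below 0.05. In CD43+ against CD43- cells, pluripotency markers were called lower in 3 of 6 cases on day 6 and in 2 of 6 on day 16. The share of all genes called lower was not counted for either day.

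Over all 34 samples, the genes with the most similar profiles were sought by Pearson correlation of log2(value + 1), given as a description because samples of a population share their state. HBZ was closest to HBE1 (r = 0.956), the embryonic beta-like chain, then HBG2 (0.922) and GP1BB (0.890). HBA1 was closest to HBG2 (0.929), HBE1 (0.916) and BLVRB (0.903), which encodes biliverdin reductase B. HBQ1 was closest to TFR2 (0.930), the second transferrin receptor, then NT5M (0.917) and DNAAF3 (0.902). HBM was closest to ANAPC5 (0.938), FECH (0.907), the enzyme that inserts iron into haem, and CA1 (0.905), a carbonic anhydrase of red cells. HBA2 was closest to ANK1 (0.858), the ankyrin of the red cell membrane, PSMF1 (0.853) and MBLAC2 (0.848), and AHSP to CYC1 (0.898), PKLR (0.896), the red cell and liver pyruvate kinase, and MDH2 (0.891). Among the 6 genes themselves, r ranged from 0.515 for HBZ with AHSP to 0.888 for HBZ with HBA1.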

How the data were processed

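RNA sequencing of 34 samples of H1 cells was used (1 undifferentiated sample and 3 replicates of each of 11 populations, taken from the labels). Per the paper's methods, the reads were aligned by the authors (bowtie2, RSEM, an Ensembl index), who then normalized tag counts with EDASeq for GC content and between samples. The submitters' processing notes also name STAR 2.7 and the build hg38. The deposited values are whole numbers of the same distribution in each sample and were treated as a score, neither a count nor a CPM, so depth and counting precision are unknown and errors given are those between replicates. A GC percent per gene in the deposited table was read to place HBZ, HBA1, HBA2 and HBQ1 above 99.2% of genes in GC content.

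All 33 replicated samples entered 1 limma fit (version 3.58.1, R 4.3.3) of log2(value + 1), with trended eBayes and no block for the replicate number. Genes had to reach 10 in 3 or more samples, which left 19788 genes tested and 467 untested, and all 6 genes described passed. P-values were adjusted by Benjamini-Hochberg over the genes tested. Genes were called at an adjusted p below 0.05 and a fold above 4. Intervals are 95% confidence intervals. No fold is given for a comparison of groups where all samples of a group were listed at 0, and changes of a CD43 difference that include such a group depend on the pseudocount. Differences between genes within a sample were compared over the 4 days with a two-sided exact permutation test (15400 assignments, smallest possible p 6.49e-05), adjusted over 10 tests. The procedure was tested on simulated data. The study calls its replicates independent, and p-values measure the spread between these samples.

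The genes, lists and tests were chosen with earlier results of these data known. Named were the 6 genes, the beta-like globins, neighbours of the cluster (of which FAM234A was also listed under an older symbol), up to 4 called genes of largest change of each other list, and the 3 closest profiles of each gene. As a check of pairing, departures from the group means were correlated between CD43+ and CD43- samples with equal numbers. They correlated at 0.109 to 0.199 on day 6, but at most at 0.108 on the other days, with at least 1 pair under 0.1. On days 6 and 12 each sample correlated best with that of its own number. Between days in CD43- cells the values for equal numbers ran from -0.319 to 0.370. Replicate numbers may therefore pair the day 6 samples, but the labels do not state a pairing. Which sample was sequenced by which provider is not given in the sources used here. Alternatives covered the pseudocount, the filter, scaling, the replicate block, the samples fitted, robust variances, the fold limit, the sum of HBA1 and HBA2 and left-out replicates. Transcript and promoter sequences came from GENCODE v29 and RefSeq tables. The values of 1 gene on the erythroid membrane and late erythroid list are not reported here.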

Additional observations from a re-analysis of the deposited data

Results flagged for a closer look

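The difference between CD43+ and CD43- cells changed from day 12 to day 16 for 4 of the 6 genes, by a test of that change in the limma fit, but the HBA1 call (adjusted p = 0.0483) was lost under a pseudocount of 0.1, median-of-ratios scaling, either replicate block, a fit of only the populations compared and 10 of 12 left-out samples, and the HBM call under a pseudocount of 10 (-1.33). The change was -8.93 for HBZ, -8.46 for HBA2, -5.43 for HBA1 and -4.21 for HBM on the log2 scale. In CD43+ cells HBZ fell from a mean of 3001 to 208, while in CD43- cells it went from 52.7 to 832 (n = 3 each). For HBA2 the CD43+ mean went from 744 to 277 and the CD43- mean from 2 to 283. Because the day 16 sort also used CD45, the day and the sort cannot be told apart in these changes.

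From day 6 to day 12 the CD43 difference of HBM became smaller by the same test (-2.16), with CD43+ means of 74.3 and 14 and CD43- samples listed at 0 on both days, so that its size depends on the pseudocount, and the call was lost with a pseudocount of 0.1 and of 10 (-1.67) and without day 6 CD43+ replicate 1.

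The undifferentiated sample, which was in no comparison, had HBZ at 150, above the 0 to 2 of the 9 unsorted samples of days 0, 2 and 4. It is 1 sample, so the difference was not tested. Its HBM was listed at 0. Of the beta-like globins in the undifferentiated sample, HBE1 (124) and HBG2 (64) were also above the 9 unsorted samples, where each was at 0 to 6. HBD was at 2 in it, and HBG1 and HBB were listed at 0.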

How the results depend on the processing

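Of the 79 fold changes of single genes that were followed, 52 were called. Their 903 values under the alternatives kept the direction in every case and the call in 862, and 41 were no longer called. The cause of these losses was not tested. The replicate block changed no call of the CD43 comparisons on days 6, 9, 12 and 16. In a fit of only the populations compared with the replicate block, 0 genes were called from day 9 against day 6 in CD43- cells (1 in the main analysis) and 1 from day 12 against day 9 (2). With either block, the HBA1 change between days 12 and 16 in the CD43 difference (-5.43) was not called.

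With a pseudocount of 10, 3 of 6 genes were called between CD43+ and CD43- cells on day 12, 1 on day 16, 0 for day 6 CD43- cells against day 4, and 1 for CD43- day 12 against day 9. With a pseudocount of 0.1, 2 were called for day 4 against day 2, 2 for day 6 CD43- cells against day 4, 2 for CD43+ day 9 against day 6, 2 for CD43+ day 16 against day 12, and 0 for the change from day 6 to day 12. Above a 2-fold change, 2 were called for day 2 against day 0 and 2 for CD43+ day 16 against day 12. With only the populations compared, 2 were called for CD43- day 9 against day 6, 1 for CD43- day 12 against day 9, and 2 for the change from day 6 to day 12. With HBA1 and HBA2 summed, 0 were called for CD43- day 9 against day 6. Where a count is 0 here, the main analysis had 1.

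Leaving out 1 replicate gave 1 to 2 genes for day 4 against day 2, 1 to 3 for day 6 CD43- cells against day 4, 2 to 4 for CD43+ day 9 against day 6, 1 to 2 for CD43+ day 16 against day 12, 1 to 3 for CD43- day 12 against day 9, and 0 to 2 for the change from day 6 to day 12. It turned the sign of values near 0 on day 16, with HBM from -0.72 to 0.19 (0.19 without CD43+ replicate 1) and HBA2 from -0.27 to 0.61 (-0.27 without CD43- replicate 2, -0.02 without CD43+ replicate 2), and that of HBQ1 in CD43- cells on day 9 against day 6 (-0.38 without day 9 replicate 2, to 0.67).

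For the differences within a sample, day 16 minus day 6, leaving out a replicate number in all days gave -3.65 to -2.68 for HBZ minus HBA1 and HBA2 in CD43+ cells, -0.27 to 0.24 for HBA2 minus HBA1, -2.34 to -1.001 for HBM, -2.43 to -1.92 for alpha-like minus beta-like, and in CD43- cells -6.23 to -5.34 for AHSP, -3.89 to -3.68 for HBM and -0.75 to 0.23 for alpha-like minus beta-like. With 2 replicates none of these passed the threshold after adjustment. With a pseudocount of 10, AHSP in CD43+ cells passed (1.41) and HBM in CD43+ cells did not (-0.27). With a pseudocount of 0.1, HBM in CD43- cells did not (-2.43) and alpha-like minus beta-like in CD43- cells was 0.0077. Median-of-ratios scaling moved the median of all genes by -0.17 and -0.21 in the CD43 comparisons of days 6 and 9, by 0.11 for day 6 CD43- cells against day 4 and by 0.17 for CD43+ day 12 against day 9, and turned no called direction.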
